A study of Mus musculus with 12 samples.

Results

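The comparison followed parthenogenetic embryonic stem cells (pESCs) into primordial germ cell-like cells (pESC-PGCLCs), using the DNA methylation level of annotated features in 2 libraries of each. The members were the features with a level in all 4 libraries, 142521 of the 176831 features that had a level in at least 1 of the 12 libraries of the series. Levels came from reduced representation bisulfite sequencing (RRBS), which cuts DNA at CCGG sites to enrich CpG-rich fragments and then reads methylated cytosines as C and unmethylated cytosines as T. Features belonged to 8 overlapping classes, so that 1 CpG can enter several features. The pESCs were derived, per the study's methods, from C57BL/6 oocytes with an Actin-GFP transgene that had been activated with strontium chloride and cytochalasin D. They were kept in medium with serum and leukaemia inhibitory factor (LIF) on mouse embryonic fibroblast feeders, and were moved to medium with titrated inhibitors before induction. The study's methods do not say from which of these media the pESC libraries were made. For pESC-PGCLCs the cells passed through 2 days as epiblast-like cells, with activin A and bFGF per the study's methods. Aggregate culture followed for 4 days with BMP4 at 500 ng/ml, SCF at 100 ng/ml, EGF at 50 ng/ml and LIF, and cells positive for SSEA1 and CD61 were sorted. Female embryonic stem cells (ESCs) from fertilised embryos, labelled with the same C57BL6 strain, and the PGCLCs made from them in the same way, 2 libraries each, serve below as the other origin. Primordial germ cells of embryonic day 9.5 and of day 12.5, also labelled C57BL6 with 2 libraries each, are given for reference at a few features. The epiblast-like cells were not measured, so a level in pESC-PGCLCs is the net of everything between the start and the sort. How many pESC lines stand behind the replicates was not given in the sources used here, so the spread between them may be that of 1 line. The 4 libraries had a level for 149828 to 166476 features each, and replicates differed by 10 points or more at 8.76% of features in pESCs and 5.73% in pESC-PGCLCs. No read counts came with the levels, so the depth behind a value is unknown and no interval could be set on it.

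Primordial germ cells are the precursors of eggs and sperm. They erase most of the methylation of the epiblast, yet promoters of germline genes, retrotransposons of the intracisternal A particle (IAP) family and imprint control regions lose it late or in part. An imprint is methylation laid down in the germline of only the mother or only the father, and cells with 2 maternal genomes, as parthenogenetic cells have, carry the maternal imprints on both chromosomes and lack the paternal ones. Female cells that leave naive pluripotency silence an X chromosome, and CpG islands of the silent copy are methylated. No expression was measured in these libraries, so the identity of the sorted cells could not be checked by marker RNA here. The study reported separate RNA-seq, in which it described early germ cell marker expression as similar in pESC-PGCLCs and primordial germ cells.

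Sequences from genes and islands described below are given first, in lower case with each CpG in capitals, 5′ to 3′, from the RefSeq GRCm38.p6 assembly. The promoters are the bases before the annotated start, cut where an annotated exon begins, whereas the deposited promoter level covers a window that the sources used here do not define. 4 germline promoters whose deposited level rose are shown, then those of Mbd3 and Tcl1, which rose from almost no methylation. Dnmt3b, whose promoter level fell, follows, and then Rlim on the X chromosome, of which other parts are described below. Which of the printed promoter CpGs a deposited level covers is not known.
Sohlh2, chr3:55181794-55182027, plus strand: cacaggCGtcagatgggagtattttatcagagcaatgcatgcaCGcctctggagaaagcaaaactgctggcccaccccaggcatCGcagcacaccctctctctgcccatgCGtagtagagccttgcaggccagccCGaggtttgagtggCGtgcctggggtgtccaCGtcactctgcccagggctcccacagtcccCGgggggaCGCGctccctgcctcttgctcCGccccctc
Hormad1, chr3:95559427-95559676, plus strand: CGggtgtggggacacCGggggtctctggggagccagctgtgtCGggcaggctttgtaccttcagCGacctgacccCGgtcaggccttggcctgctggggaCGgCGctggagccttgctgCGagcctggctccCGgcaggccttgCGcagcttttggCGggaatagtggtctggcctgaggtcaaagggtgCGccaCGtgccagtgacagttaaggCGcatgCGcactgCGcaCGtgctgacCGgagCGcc
Mael, chr1:166238748-166238994, minus strand: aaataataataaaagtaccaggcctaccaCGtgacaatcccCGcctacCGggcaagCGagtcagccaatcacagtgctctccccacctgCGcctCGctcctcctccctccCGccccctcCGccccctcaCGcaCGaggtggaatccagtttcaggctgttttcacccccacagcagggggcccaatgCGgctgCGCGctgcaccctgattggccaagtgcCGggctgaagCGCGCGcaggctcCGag
Slc25a31, chr3:40708621-40708854, plus strand: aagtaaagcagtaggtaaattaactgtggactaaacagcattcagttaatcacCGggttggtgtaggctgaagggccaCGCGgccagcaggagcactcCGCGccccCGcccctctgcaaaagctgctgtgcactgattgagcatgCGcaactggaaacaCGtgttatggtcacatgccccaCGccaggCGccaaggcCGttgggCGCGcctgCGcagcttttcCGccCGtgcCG
Mbd3, chr10:80399551-80399781, minus strand: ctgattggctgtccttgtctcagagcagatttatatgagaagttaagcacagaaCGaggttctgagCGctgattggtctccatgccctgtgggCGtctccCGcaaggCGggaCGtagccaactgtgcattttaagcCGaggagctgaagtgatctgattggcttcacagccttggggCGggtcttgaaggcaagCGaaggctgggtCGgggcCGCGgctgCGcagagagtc
Tcl1, chr12:105222794-105222987, minus strand: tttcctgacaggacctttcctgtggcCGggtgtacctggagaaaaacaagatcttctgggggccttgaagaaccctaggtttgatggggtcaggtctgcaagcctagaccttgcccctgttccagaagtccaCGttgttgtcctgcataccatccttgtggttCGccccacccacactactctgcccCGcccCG
Dnmt3b, chr2:153649199-153649448, plus strand: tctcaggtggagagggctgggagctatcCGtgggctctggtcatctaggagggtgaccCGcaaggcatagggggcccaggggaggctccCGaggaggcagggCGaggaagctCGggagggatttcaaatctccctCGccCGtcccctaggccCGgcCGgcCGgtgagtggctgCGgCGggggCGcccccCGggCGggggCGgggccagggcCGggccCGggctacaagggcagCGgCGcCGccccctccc
Rlim, chrX:103981286-103981535, minus strand: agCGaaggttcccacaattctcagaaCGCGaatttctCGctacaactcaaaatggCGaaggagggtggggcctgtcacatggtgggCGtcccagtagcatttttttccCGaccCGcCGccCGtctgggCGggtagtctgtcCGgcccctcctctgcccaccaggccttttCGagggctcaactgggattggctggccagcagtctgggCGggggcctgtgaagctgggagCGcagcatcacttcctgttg
The islands shown are those with the largest called rise and fall among islands of at most 300 bases outside UTRs, which lie in coding exons of Zmynd8 and Cdh15.
Zmynd8 island, chr2:165807681-165807917, plus strand: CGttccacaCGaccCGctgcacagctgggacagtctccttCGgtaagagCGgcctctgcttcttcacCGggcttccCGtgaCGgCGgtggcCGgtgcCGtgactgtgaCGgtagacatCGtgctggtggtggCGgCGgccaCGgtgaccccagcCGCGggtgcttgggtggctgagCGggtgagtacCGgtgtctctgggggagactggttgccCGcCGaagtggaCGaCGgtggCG
Cdh15 island, chr8:122864938-122865178, plus strand: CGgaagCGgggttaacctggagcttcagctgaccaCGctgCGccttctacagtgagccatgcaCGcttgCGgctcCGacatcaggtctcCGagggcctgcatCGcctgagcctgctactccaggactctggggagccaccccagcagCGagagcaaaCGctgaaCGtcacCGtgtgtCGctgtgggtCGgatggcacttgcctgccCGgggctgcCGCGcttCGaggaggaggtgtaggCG
The Hormad1, Mael and Slc25a31 promoters hold the E-box CACGTG, printed as caCGtg, which is bound by MAX-containing complexes that repress germline genes in embryonic stem cells. Over windows of 250 bases before and 50 after the start, CACGTG, which reads the same on both strands, was found at 12 of 26 tested germline genes with a window (46.2%), at 1132 of 11653 genes with a tested promoter (9.71%), and at 94 of 966 whose promoter was called higher (9.73%). TCCCGC, the core of an E2F site, was found on either strand at 46.2% of the germline windows and 34.8% of the windows of genes with a tested promoter. A match describes the letters only.

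Methylation was higher in pESC-PGCLCs in every class. The mean level over all 142521 features was 24.8% and 23.9% in the pESC libraries and 28.4% and 28.0% in the pESC-PGCLC libraries, a difference of 3.80 points with group SDs of 0.640 and 0.280. The median of the differences of single features was 0.591 points, while the medians of the libraries differed by 10.8 points, so the size depends on the summary. Both pESC-PGCLC libraries lay above both pESC libraries, and the exact two-sided permutation test gave its smallest possible p of 0.333, so that no mean of 2 against 2 libraries can pass 0.05. CpG islands, which are mostly unmethylated, went from 3.51% and 3.83% to 5.61% and 5.55%. Promoters went from 15% and 14.7% to 18.3% and 18%, and 5′ UTRs from 4.41% and 4.94% to 6.04% and 5.97%. Island shores, the flanks of islands, were higher by 3.88 points, exons by 4.30, introns by 4.17 and repeats by 4.54. The widest difference was that of 3′ UTRs, with 38.2% and 35.4% in pESCs and 44.8% and 44.3% in pESC-PGCLCs, or 7.74 points.

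**Figure D1:**
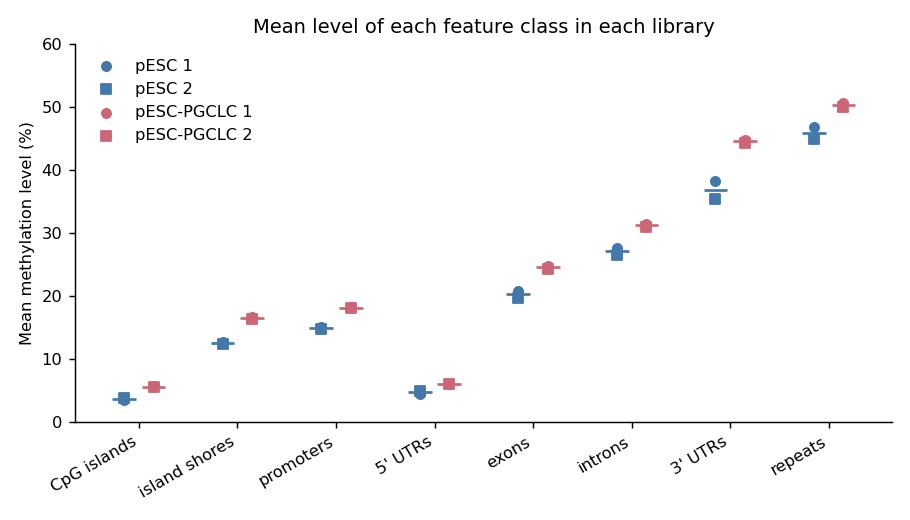
Mean methylation level in percent (vertical axis) of the features of each class (horizontal axis) in each of the 4 libraries, with a bar at each group's mean. Both pESC-PGCLC libraries sit above both pESC libraries in all 8 classes, furthest in 3′ UTRs.

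Feature by feature, 16547 features (11.6% of those tested) were called, with an adjusted p under 0.05 in limma and a difference of group means of at least 10 points. Of these, 15146 (10.6%) were higher and 1401 (0.983%) lower in pESC-PGCLCs. Called features that rose had a median level of 14.7% in pESCs and 44% in pESC-PGCLCs, and 404 of them rose by 50 points or more. Called features that fell went from a median of 34.9% to 12.7%, and 15 fell by 50 points or more. With 1 library left out, a group has 1 library and the spread comes from the other group alone. The count was then 12853 without pESC replicate 1, 12088 without pESC replicate 2, 5451 without pESC-PGCLC replicate 1 and 4281 without pESC-PGCLC replicate 2, with 90.5 to 93.9% of the calls higher in each. Of the 16547, between 98.1 and 99.2% still differed by at least 10 points in the same direction with each library left out. These features were selected in the same 4 libraries for such a difference, so this share is no independent check. The median log2 odds was 0.93 higher in pESC-PGCLCs, so calls were also made relative to each library's median. 9069 features then rose and 4122 fell, so that 68.8% of the calls were rises in place of 91.5%. Direction in these calls is relative to the median in log2 odds, so a feature counted as a fall can still be higher in points. Rises still outnumbered falls in all 8 classes.

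Gains outnumbered losses in each class, and the share that rose was 19.4% of 4032 3′ UTRs (783 higher and 29 lower), 12.9% of 15329 island shores (1981 and 295), 12.7% of 19730 exons (2502 and 252), 11.6% of 19203 introns (2229 and 256), 11.4% of 39803 repeats (4531 and 358, 0.899%), 9.68% of 19336 promoters (1872 and 158, 0.817%), 5.76% of 13947 CpG islands (803 and 17, 0.122%) and 3.99% of 11141 5′ UTRs (445 and 36). Losses were most frequent at island shores, at 1.92%. On autosomes, islands that hold an annotated gene start rose in 1.26% of 8571 cases, whereas islands inside genes without a gene start rose in 10.2% of 4362, with mean levels of 6.42% and 6.27% in pESCs and 10.1% in both pESC-PGCLC libraries. Within a gene, other parts often rose with a promoter that rose: of the 1872 such promoters, 1226 had a tested exon feature and 44.4% of these rose, against 12.7% of all exons. The share was smaller for falls, which were also rarer among all exons. Of the 158 promoters that fell, 125 had a tested exon feature, of which 11.2% fell and 10.4% rose, against 1.28% and 12.7% of all exons. Parts of a gene overlap and share CpGs, so these shares are descriptions.

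The difference between the groups varied with the level that a feature had in ESCs. To keep the grouping apart from the libraries compared, features were sorted by their mean level in the 2 ESC libraries. Features under 5% in ESCs were higher in pESC-PGCLCs by 1.84 points, those at 5 to 10% by 8.04, and those at 10 to 20% and 20 to 30% by 10.8 and 10.5 points, where 35.0% and 30.7% of the features were called higher. Between 40 and 50% the difference was 3.19 points, and 3.87% were called higher. Above 60% the difference turned. The difference was -0.748 points at 60 to 70%, -2.97 at 70 to 80% and -3.98 above 80%, with 41 of 876 features called lower (4.68%) and 5 higher in the last bin. In the bins from 70% up both pESC-PGCLC libraries lay below both pESC libraries, and between 50 and 70% the groups overlapped.

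**Figure D2:**
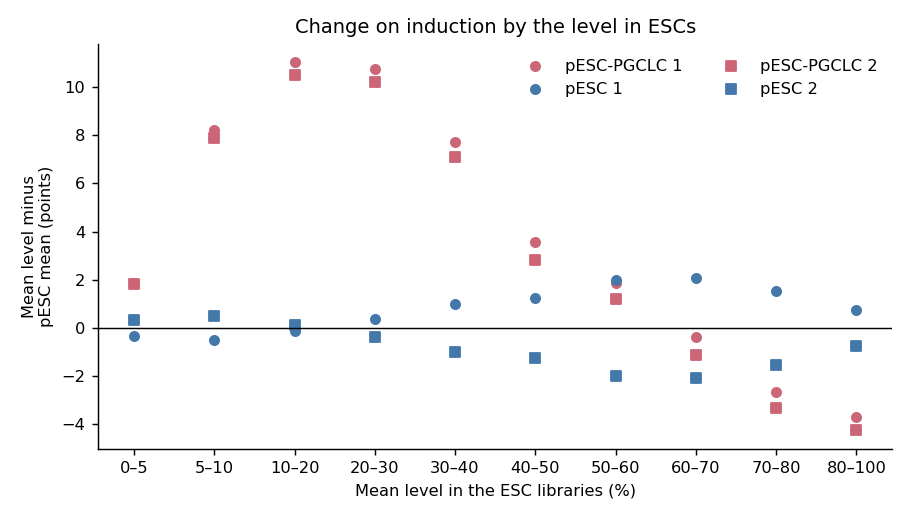
Mean level of each library minus the mean of the pESC libraries, in percentage points (vertical axis), for features grouped by their mean level in the ESC libraries (horizontal axis). The pESC-PGCLC libraries stand about 10.8 points higher at 10 to 20% and below both pESC libraries from 70% up.

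Promoters of germline genes, whose products act in germ cells and are mostly silent elsewhere, rose in 15 of 31 tested cases, against 9.68% of all promoters. The list held 49 genes, of which 31 had a tested promoter. None of the 31 fell, where 0.817% of all promoters did, so few falls would be looked for in a list of this size. The groups did not overlap in the higher direction at 26 of 31, against 40.9% of all promoters. The median difference was 12 points against 0.446 over all promoters. Sohlh2, a transcription factor of early oocyte and spermatogonial differentiation, had 9.92% and 7.74% in pESCs and 57.8% and 59.3% in pESC-PGCLCs. Hormad1, a protein of the meiotic chromosome axis, had 23% and 17% and then 66.5% and 64.9%. Both genes were far above the pESC range in both PGCLC libraries (adjusted p = 0.00365 and 0.00523).

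Genes of the piRNA pathway, which silences transposons in germ cells, were among those that rose. The promoter of Piwil2, a PIWI protein, had 9.82% and 9.77% in pESCs and 45.4% and 45% in pESC-PGCLCs (adjusted p = 0.00375). Rnf17, a tudor-domain protein of germ granules, had 1.84% and 1.90% and then 37.0% in both (adjusted p = 0.00365). Ddx4, the RNA helicase also called Vasa, had 11% and 10.4% and then 45.6% and 41.6% (adjusted p = 0.00413). The groups did not overlap for any of the 3. Asz1 rose by 32.2 points and Mael by 28.3, from 18.8% and 14.4% to 44.9% and 44.8%. Meiotic genes rose as well: Sycp2, of the synaptonemal complex, rose by 33.7 points, Sycp3 by 25.7 and Hormad2 by 17.7. The remaining rises were those of Slc25a31, Rpl10l, Taf7l, Figla and Boll, by 12 to 31.2 points. The Dazl promoter, which belongs to an RNA-binding regulator of germ cell identity, had 32.1% and 15.9% in pESCs and 44.7% and 45.4% in pESC-PGCLCs, and did not pass (adjusted p = 0.130), although its 5′ UTR rose by 27.2 points (adjusted p = 0.0322). Promoters already above 40% in pESCs, such as Tex101, Fkbp6, Meioc, Dnmt3l and Nobox, were not called, nor were Stag3, Tex15 and Syce2, which stayed under 8% in all 4 libraries. The count of 15 was 14 and 12 without either pESC library, 6 without pESC-PGCLC replicate 1 and 5 without pESC-PGCLC replicate 2. Over the 29 listed promoters with a level in all 12 libraries, the mean was 25.3% and 21.4% in pESCs, 41.1% and 39.2% in pESC-PGCLCs, 42.7% and 43.8% in ESC-PGCLCs, 57.9% and 55.7% in primordial germ cells of embryonic day 9.5, and 37.4% and 37.2% in those of day 12.5.

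**Figure D3:**
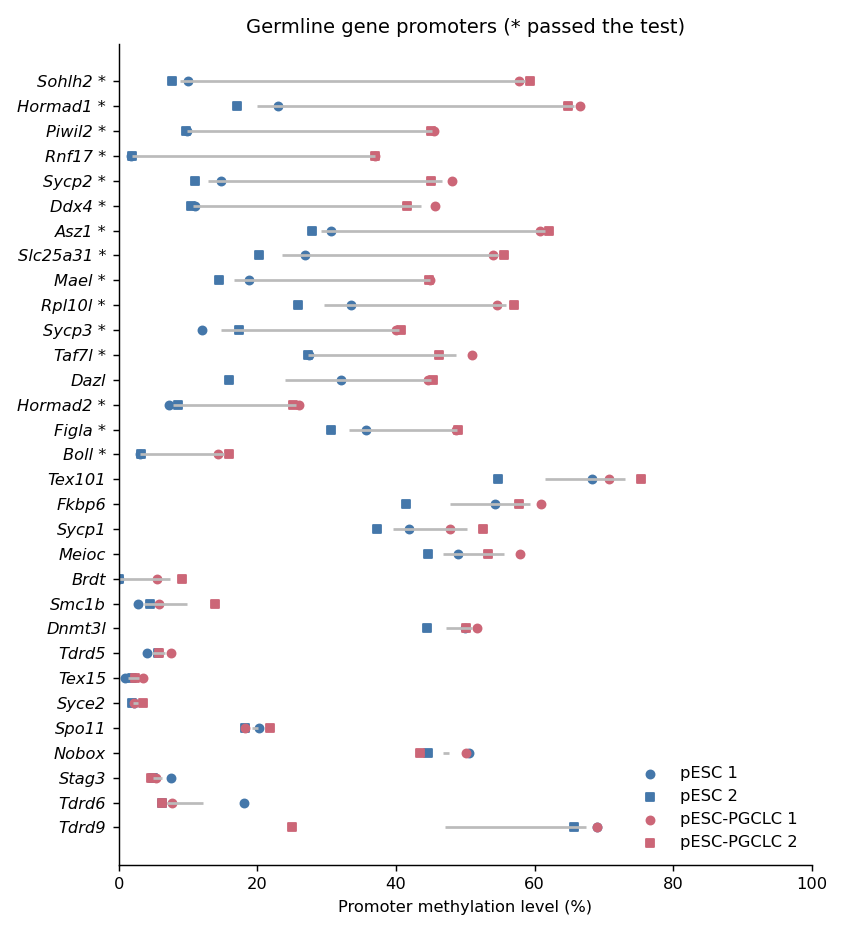
Promoter methylation level in percent (horizontal axis) of the 31 tested germline genes (vertical axis) in the 4 libraries, ordered by the difference, with a line between group means. The 15 genes with an asterisk passed the test and all of them stand higher in pESC-PGCLCs.

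Some promoters of pluripotency genes rose strongly, while others stayed near 0. Of 23 tested, 6 rose and 0 fell, against 9.68% and 0.817% of all promoters. Tcl1, a kinase cofactor of embryonic stem cells, had 2.22% and 4.04% in pESCs and 55.7% and 54.3% in pESC-PGCLCs. Dppa5a went from 1.78% and 2.26% to 51.9% and 47.8%, Dppa2 from 3.15% and 4.48% to 45.1% and 42.7%, and Zfp42, the marker also called Rex1, from 1.22% and 1.74% to 27.7% and 30.2%. Adjusted p was between 0.00365 and 0.00371 for these 4. Of the others that rose, Dppa3, also called Stella, which is a marker of both naive pluripotency and germ cells, went from 1.85% and 3.33% to 28.1% and 24.8%. The Pou5f1 promoter, which encodes Oct4, had 2.38% and 3.57% in pESCs and 12% and 11.9% in pESC-PGCLCs; the adjusted p was 0.0111, but the difference of 8.96 points was under 10. Sox2, Klf4 and Esrrb differed by less than 1 point and did not pass. Nanog had no tested part. Elsewhere in the listed genes, 10 of 23 introns rose and 0 fell, against 11.6% and 1.33% of all introns. For exons the counts were 8 of 23 and 0, against 12.7% and 1.28% of all exons.

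Of 14 tested promoters of genes for germ cell specification, 3 rose, against 9.68% of all promoters, which were Tcl1 and Dppa3 again and the X-linked Rhox9, with 13.1% and 11.4% in pESCs and 54.3% and 52.1% in pESC-PGCLCs. Tfap2c, a transcription factor needed for primordial germ cells, had 1.72% and 2.49% and then 1.90% and 2.65%. Kit, the receptor for SCF, had 17.4% and 21.3% and then 39.3% and 28.3%, and was not called (adjusted p = 0.106). Prdm14 and Prdm1 had no tested promoter, but their introns rose, that of Prdm14 from 3.21% and 3.8% to 16.3% and 15.9% and that of Prdm1 from 19.2% and 22.2% to 39.6% and 37.7%. The Nanos3 intron had 1.65% and 2.34% and then 6.23% and 7.85%, a difference under 10 points.

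Among 26 promoters of genes that write, read or remove methylation, 3 rose and 1 fell, and the share that rose is near the 9.68% of all promoters. Mbd3, a subunit of the NuRD chromatin complex, showed the third-largest rise among promoters outside predicted genes, from 0.585% and 1.55% to 64.8% and 66.5%, while its 5′ UTR stayed at 1.80% and 2.27% in pESCs and 1.93% and 3.06% in pESC-PGCLCs. Hells, a helicase needed for methylation of repeats, went from 2.94% and 7.86% to 37.2% and 36.7%, and Dppa3 was described above. Dnmt3b, a de novo methyltransferase, fell from 14.3% and 16.3% to 3.97% and 2.75% (adjusted p = 0.00869), and no level overlapped between groups. Its 5′ UTR stayed between 1.15% and 1.83% in all 4 libraries.

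Of 34 tested promoters of genes of the formative state and gastrulation, Sox4, Mesp2 and Lefty2 rose and Dnmt3b fell. The share that rose is near the 9.68% of all promoters, and the median difference was 0.065 points. Otx2, Fgf5 and T, which mark epiblast-like cells and mesoderm, had 1.85 to 4.00% in all 4 libraries. Of 34 Hox promoters, 0 rose and 3 fell, against 0.817% of all promoters, and 27 of 34 were lower in pESC-PGCLCs, against 29.99% of all promoters. Hoxc10 had 27.4% and 28.2% in pESCs and 12.2% and 9.67% in pESC-PGCLCs, Hoxd3 had 24.2% and 22.9% and then 8.26% and 7.70%, and Hoxa6 had 26.1% and 29.96% and then 15.1% and 11.3%. These 3 calls were 1 without pESC replicate 1 or 2 and 0 without either pESC-PGCLC library. The mean of the 34 promoters was 7.68% and 7.62% in pESCs and 4.62% and 4.24% in pESC-PGCLCs. Promoters of fibroblast genes, which would mark feeder cells left in the pESC libraries, had means of 13.4% and 12.5% in pESCs and 8.87% and 9.61% in pESC-PGCLCs. Of the 7, Col1a2 was called lower (adjusted p = 0.0469), a call lost with untransformed levels, the replicate block or any library left out, and 0 of the 3 trophoblast promoters were called. The part of other cells in the differences was not tested.

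Maternally methylated imprinted promoters were called in both directions. Of 33 listed genes, 25 had a tested promoter, 4 of which rose and 2 fell, against 9.68% and 0.817% of all promoters, with a mean of 30.3% and 29.9% in pESCs and 34.0% and 34.9% in pESC-PGCLCs. The exact permutation test of these means gave 0.333, its smallest value, and the median difference was 0.262 points. The 2 that fell were the highest at the start: Snrpn, a splicing protein gene of the Prader-Willi region, had 82.8% and 83.2% in pESCs and 66.2% and 69.99% in pESC-PGCLCs (adjusted p = 0.0230), and Snurf, which shares its transcript, had 77.3% and 75.8% and then 63.1% and 65.0% (adjusted p = 0.0431). The 4 that rose were low at the start. Mcts2 had 6.13% and 3.76% in pESCs and 35.7% and 38.1% in pESC-PGCLCs, Nespas had 12.7% and 14.8% and then 36.0% and 37.6%, Gnas had 8.20% and 9.63% and then 29.6% and 31.7%, and Mkrn3 had 0.455% and 2.11% and then 16.4% and 17.1%. Nespas and Gnas lie in the same cluster. Plagl1 and Slc38a4 had differences of 14.1 and 16.0 points with adjusted p of 0.0502 and 0.0552, just outside the threshold. Promoters with an intermediate level were not called. Zrsr1, a splicing factor gene, had 40.3% and 40.1% and then 37.0% and 36.6%. Mest, a growth-related gene, had 47.6% and 44.7% and then 45.2% and 38.7%, Peg10 had 38.9% and 34.6% and then 41.8% and 40.5%, and its neighbour Sgce, which shares its island, had 39.3% and 35.4% and then 42.7% and 40.8%. Nap1l5 had 56.3% and 54.8% and then 48.7% and 46.3% (adjusted p = 0.185), and Igf2r had 10.1 to 15% in all 4 libraries. Without pESC-PGCLC replicate 1 or 2 there was 1 rise and 0 falls among the 25, and without pESC replicate 1 or 2 there were 5 rises and 0 falls. Peg3 and Impact had no tested promoter. The Peg3 exons had 74.5% and 68.8% in pESCs and 65.4% and 65.8% in pESC-PGCLCs, and the Impact intron 53.1% and 57.7% and then 52.7% and 51.9%, neither past the test.

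The promoters of the 6 tested genes with a paternally methylated imprint were not called in either direction. H19, a long non-coding RNA gene, had 52.6% and 39.9% in pESCs and 55.2% and 47.8% in pESC-PGCLCs, so that the groups overlapped. Meg3, its counterpart in the Dlk1 cluster, had 17.5% and 22.1% and then 29.6% and 32.2%, a difference of 11.1 points with an adjusted p of 0.0812. Dlk1, Igf2, Rasgrf1 and Zdbf2 stayed under 5% in all 4 libraries. These genes are listed by the imprint that controls them, and for most of them the imprinted region lies outside the promoter.

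Whether the change differed by origin, parthenogenetic or fertilised, was tested as the interaction of origin and induction in the 8 libraries of both origins. The interaction was called for 50 of 136848 features (0.0365%), with 25 in each direction. An unadjusted p under 0.05 was found for 4053, a smaller share than the 0.05 that uniform p-values would give. In the 25 negative calls, where the change from pESCs was smaller or more negative than that from ESCs, 20 features belonged to genes of the imprinted lists or were islands and shores within 5 kb of them, which was counted after the values were seen. Among 22 maternally methylated imprinted promoters tested, 5 were called, all negative. Zrsr1 had 1.65% and 1.91% in ESCs and 32.8% and 33.9% in ESC-PGCLCs, against 40.3% and 40.1% and then 37.0% and 36.6% from pESCs, an interaction of -34.9 points (adjusted p = 0.00721). Mest had 6.73% and 6.76% in ESCs and 34.5% and 36.7% in ESC-PGCLCs (-33.1 points, adjusted p = 0.0488). Sgce (-27.4 points), Peg10 (-26.6) and Commd1 (-25.1), whose gene contains Zrsr1, had 1.59 to 3.52% in ESCs and 23.9 to 36.6% in ESC-PGCLCs. At these 5 promoters pESCs stood 28.2 to 39.4 points above ESCs in group means, and pESC-PGCLCs stood 3.09 to 6.79 points above ESC-PGCLCs. With 1 library of parthenogenetic origin left out, its group has 1 library and the spread comes from the other groups. In limma 1 feature was then called without pESC replicate 1, and 0 without pESC replicate 2, pESC-PGCLC replicate 1 or pESC-PGCLC replicate 2, where 4815, 2809 and 2527 features had an unadjusted p under 0.05. The size moved little, since with any 1 of the 8 libraries left out the interaction was -35.5 to -34.4 points at Zrsr1 and -36.3 to -29.9 at Mest. The 2 ESC libraries also stand further apart than any other pair, since 26.8% of their features differed by 10 points or more, against 4.55 to 8.76% in the other 5 groups. In the 25 positive calls both ESC-PGCLC libraries were under 10%, and in 14 both were at 0. Of the other lists, 0 promoters were called, and 1 of 29 germline promoters had an unadjusted p under 0.05.

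**Figure D4:**
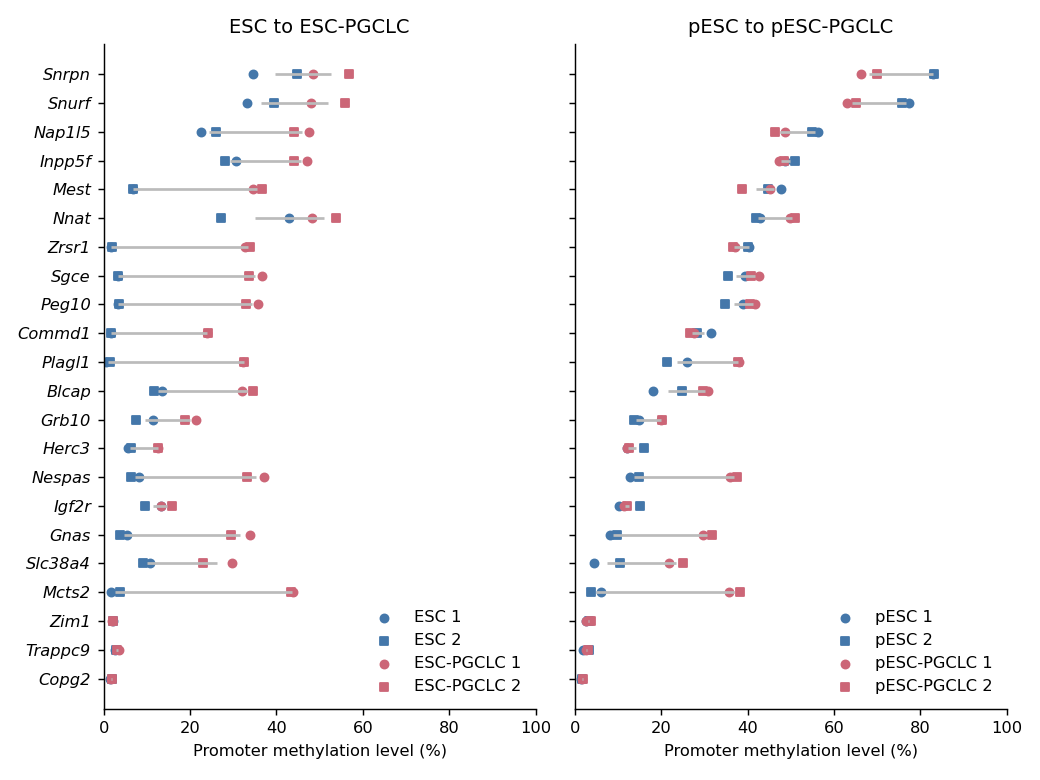
Promoter methylation level in percent (horizontal axis) of the 22 maternally methylated imprinted genes with a level in all 8 libraries (vertical axis, ordered by the pESC mean), from ESCs to ESC-PGCLCs on the left and from pESCs to pESC-PGCLCs on the right, with a line between group means. Zrsr1, Sgce, Peg10, Commd1 and Mest start at 1.59 to 6.76% in ESCs and at 28.3 to 47.6% in pESCs, and Snrpn and Snurf stand lower in pESC-PGCLCs than in pESCs.

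The X chromosome stood apart from every autosome. Over 2702 X-linked features outside repeats the mean level was 17.2% and 16.6% in pESCs and 27.6% and 27.2% in pESC-PGCLCs, a difference of 10.5 points, whereas the 19 autosomes differed by 2.20 to 4.28 points. Called rises made up 43.8% of the X-linked features, and 6.70 to 12.2% on the autosomes. The exact permutation test of the X means gave 0.333, the smallest p it allows. At CpG islands, 216 of 354 on the X rose (61.0%) and 0 fell, against 4.31% of 13587 autosomal islands. That share depends on the minimum difference of 10 points, which lies close to the median X-linked difference of 11.4. With a minimum of 20 points 23 of the 354 rose, against 476 of all 13947 islands. Without a minimum 301 rose, against 1055 of all islands. The mean X-linked island went from 3.98% and 4.17% to 16.2% and 16.3%, and the mean autosomal island from 3.48% and 3.81% to 5.32% and 5.26%. The change was spread over the islands: 350 of 354 were higher in pESC-PGCLCs, the middle 50% of them by 8.73 to 13.9 points, and 250 of them lay between 10 and 30% in pESC-PGCLCs. Islands at gene starts were included, as 129 of 202 X-linked islands holding an annotated start rose (63.9%), against 1.26% on autosomes. The count of 216 was 209 and 187 without pESC replicate 2 and 1, 155 without pESC-PGCLC replicate 1 and 121 without pESC-PGCLC replicate 2. Without X-linked features the total of called features was 14947, of which 13616 were higher.

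The X-linked genes below were picked after the values were seen. The 5′ UTR of Rlim, a ubiquitin ligase gene that acts in X inactivation, had 1.69% and 2.61% in pESCs and 12.9% and 15.2% in pESC-PGCLCs, and its intron 1.10% and 0.692% and then 17.2% and 18.5%. Exons of Tsix, the antisense partner of the X inactivation RNA, had 1.37% and 1.64% and then 14% and 13.6%, with adjusted p of 0.00379. None of these levels overlapped between groups. The 5′ UTR of the X-linked retrogene Yy2 went further, from 2.68% and 3.76% to 70.9% and 64.1%. ESC-PGCLCs had a similar mean over X-linked islands, of 17.3% and 17.7%, from 4.55% and 3.92% in ESCs, and primordial germ cells had 22.4% and 22.6% at day 9.5 and 16.6% and 17.2% at day 12.5. In bulk cells a level of this size cannot tell a few cells with a methylated X from many cells with partial methylation.

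**Figure D5:**
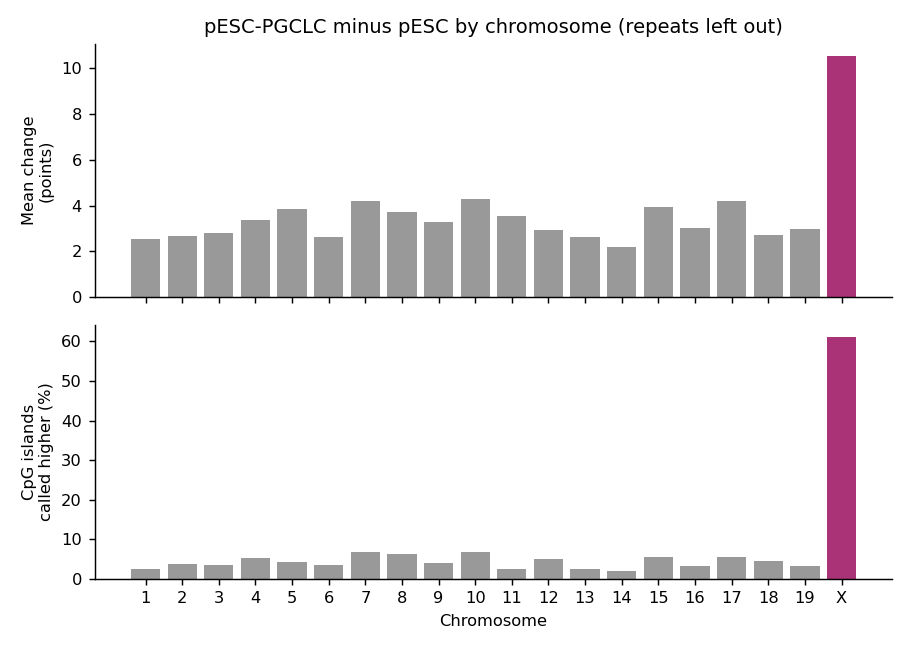
Mean difference between pESC-PGCLCs and pESCs in percentage points (upper panel) and share of CpG islands called higher in percent (lower panel) for each chromosome (horizontal axis), with the X in colour. The X stands at 10.5 points and 61.0%, and each autosome at 4.28 points or less.

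Repeat elements differed by family. In the deposited levels a repeat is an element name with a stretch of its consensus, and carries no genome position. IAP elements, retrovirus-like elements that resist erasure in germ cells, stayed high. The 638 IAP internal stretches had means of 68.7% and 67.6% in pESCs and 67.9% and 67.1% in pESC-PGCLCs, overlapping between groups, with 11 called higher and 12 lower. IAPEz-int, with 297 stretches, had 73.3% and 72.4% and then 72.3% and 71.5%. Of 269 IAP long terminal repeats, 15 rose (5.58%) and 0 fell, and their median difference was -0.112 points. Among the internal stretches 1.72% rose and 1.88% fell. Over all repeats 11.4% were called higher and 0.899% lower. Calls relative to each library's median gave 6 rises and 31 falls for the internal stretches and 8 and 5 for the terminal repeats, so that no direction is given for them.

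LINE-1 subfamilies, the autonomous retrotransposons of the mouse, split. L1MdTf_I, a young subfamily, had 33.7% and 32.3% in pESCs and 51.2% and 51.4% in pESC-PGCLCs, and 79 of its 164 stretches rose while 0 fell. L1MdTf_II had 35.0% and 32.3% and then 52.6% in both libraries, with 92 of 204 higher and 1 lower. L1MdN_I had 38.0% and 37.2% and then 54.3% and 53.3%, with 94 of 212 higher, and L1MdGf_I had 53.9% and 46.3% and then 61.0% and 61.2%, with 63 of 275 higher. In contrast L1MdA_I, also young, had 66.7% and 65.1% and then 65.1% and 65.0%, with 8 of 339 higher and 4 lower, and L1MdA_VII had 51.4% and 51.5% and then 51.3% and 50.3%. All repeats had 11.4% called higher and 0.899% lower. Short elements stood near or above that share. B1 elements, derived from the 7SL RNA, had 36.7% and 35.4% and then 45.6% and 45%, with 397 of 1789 higher and 15 lower. B2 elements were higher by 8.42 points, the B4 group by 7.77 and the MT and ORR1 elements of the MaLR family by 7.92. Among the 276 stretches of MERVL and MT2, retroviruses of the early embryo, 42 rose and 1 fell. Of 39 satellite stretches 11 rose, and their mean went from 46.2% and 43.4% to 58.3% and 57.9%. From ESCs to ESC-PGCLCs the differences were 22.4 points for L1MdTf_I, 24.9 for L1MdTf_II and 13 for B1. Relative to each library's median, L1MdTf_I, L1MdTf_II, L1MdN_I and L1MdGf_I still had 38 to 83 rises and 5 to 8 falls each, B1 had 217 and 78, and MERVL and MT2 had 18 and 15, while L1MdA_I and L1MdA_VII turned to 2 rises and 16 falls and to 4 and 49. Without pESC-PGCLC replicate 1 or 2 the rises numbered 40 and 31 for L1MdTf_I, 57 and 44 for L1MdTf_II, 56 and 52 for L1MdN_I, 16 and 14 for L1MdGf_I, 109 and 92 for B1, 15 and 11 for MERVL and MT2, and 6 and 5 for satellites. Of single stretches, RLTR31B2 (bases 1 to 328) rose most, from 1.81% and 3.08% to 93.8% and 95%, and L1MdF_III (bases 6260 to 6575) fell most, from 83.3% and 60% to 0 in both.

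Among promoters the largest rises were those of Cd59b, a complement inhibitor, from 3.28% and 5.08% to 73.8% and 74.7%, Tex50, from 2.93% and 5.98% to 79.5% and 64.4%, and Mbd3. The largest falls were those of Srp9, a signal recognition particle protein, from 60.2% and 51.6% to 0.251% and 0.812%, Hopx, a homeodomain protein of heart development, from 46.0% and 59.2% to 0 in both, and AI854703. Each of these 6 promoters kept its groups apart, with adjusted p from 0.00365 to 0.0151. Exons of BC048507, Olfr286 and Zfp647 rose by 65.4 to 75.8 points, and those of Cwc22, a splicing factor, fell from 63.6% and 51.2% to 2.07% and 2.23%, followed by Nsd2 and Masp1. Introns of Cd59b, Platr8 and Cln8 rose most, and that of Polr2b, the second subunit of RNA polymerase II, went from 55.6% and 55.4% to 0 and 1.45%, with Suclg1 next. The 3′ UTRs of 3 neural genes fell most, namely Ntrk2, a neurotrophin receptor, from 61.8% and 58.5% to 16.9% and 14.6%, Emx2 and Pou4f3, while those of Olfr286, Pip4p1 and Nupl2 rose most. For 5′ UTRs the largest rises were at Yy2, Tmprss12 and Sohlh2 and the largest falls at Agpat4, Scap and Psmd11. The Olfr286 exon and 3′ UTR carry identical levels, so they rest on the same CpGs.

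Among CpG islands with the largest rises, those in Zmynd8 and Rbm4 overlapped coding exons. The Zmynd8 island printed above (chr2:165807681-165807917) had 1.71% and 1.04% in pESCs and 66.1% and 68.6% in pESC-PGCLCs. An island in Rbm4 (chr19:4787769-4788037) had 4.82% and 5.61% and then 65.6% and 67.8%. The largest falls were at islands in Lhx9 (chr1:138841499-138842069), from 59.1% and 39.2% to 8.26% and 12.4%, 35825 bp from Tbx5 (chr5:119796511-119796843), from 60.4% and 52.8% to 26.3% and 19.9%, and in Slc2a10 (chr2:165503862-165504148), from 30.8% and 21.2% to 0 in both. The Cdh15 island printed above (chr8:122864938-122865178) had 79.0% and 75.2% and then 60.1% and 58.3%. Among island shores those in Tnip1, Kansl2 and Apex1 rose most, by 65.5 to 72.4 points, and those next to Kif1a and Tmem33 and in Esr1 fell most, the first of them from 49.6% and 51.2% to 0 in both. Since these levels carry no read counts, a level of 0 may rest on few reads.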

How the data were processed

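DNA methylation was measured by RRBS in 12 mouse libraries of 6 groups, of which the 2 pESC and the 2 pESC-PGCLC libraries were compared and the ESC and ESC-PGCLC libraries entered the interaction. Per the study's methods and the submitters' processing notes, the authors aligned reads with Bismark 0.16.3 and Bowtie2 to mm10, and the deposited values are each feature's level as a fraction, methylated CG calls over all CG calls, corrected for non-conversion. The promoter window, the coverage minimum and how copies of a repeat were pooled are not given in the sources used here. A fraction resting on few reads weighs as much as one resting on many.

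Levels were multiplied by 100 for printing. Of 30073 gene identifiers, 30060 matched GENCODE M21 (GRCm38). All 14559 islands on assembled chromosomes began with CG in GRCm38 when starts were counted from 0, and starts are printed counted from 1. Each fit took the features measured in all of its libraries. The log2 odds of the level, after adding 0.01 to both the level and its complement, went into limma 3.58.1 (R 4.3.3), and p-values were adjusted across all classes together by Benjamini and Hochberg; a call needed an adjusted p under 0.05 and 10 points. For means, all regroupings of the libraries were enumerated (scipy 1.17.1, exact permutation test, two-sided). Matplotlib 3.10.9 drew the figures. On simulated data for the pESC design, limma recovered 169 of 200 features shifted by 4 in log2 odds with 6 false calls, and 94 shifted by 2 with 2, among 20000 features. For the interaction it recovered 159 and 26, with 4 and 1 false calls. The simulation shifted only features of intermediate level, drew noise independently for each feature and held no library-wide shift. In the data 11.6% of features were called, so these counts do not give the error rate of the calls above.

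Named features were, per class, the 3 called features with the largest rise and the 3 with the largest fall whose groups did not overlap (predicted and unnamed genes passed over), up to 5 called promoters per gene list together with fixed genes, and repeat groups; further promoters of the germline, pluripotency and imprinted lists, the Cdh15 island, Rlim and Tsix were added after their values were seen. The comparison, the gene lists and the tests were chosen with earlier results of these data known. The alternatives are in the closing section. The replicates are described as biological, but p-values measure only the spread between these libraries. Some features that the naming rule selects are not reported here.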

Additional observations from a re-analysis of the deposited data

Results flagged for a closer look

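The change on induction differed by origin, by the test of the interaction, for 50 features (25 in each direction), including 5 promoters of the imprinted lists. At these 5 the change from pESCs minus the change from ESCs was -34.9 points for Zrsr1, -33.1 for Mest, -27.4 for Sgce, -26.6 for Peg10 and -25.1 for Commd1. The Sgce and Peg10 promoters share an island and Zrsr1 lies within Commd1, so the 5 stand for 3 loci. With 1 library of parthenogenetic origin left out, which leaves its group with 1 library assumed to vary like the others, limma called 1 feature without pESC replicate 1 and 0 without any other of the 4. At the 5 promoters the adjusted p was then 0.0647 to 0.308, and with any 1 of the 8 libraries left out the difference was -36.3 to -23.5 points.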

How the results depend on the processing

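The count of 16547 called features ranged from 4281 to 12853 when a replicate was left out and the lone library was assumed to vary like the other group, was 9683 with a minimum difference of 20 points, and stayed within 1.5 times under the other alternatives, from 13191 with levels centred on the library median to 20128 without a minimum difference. With the replicate number as a block 14598 features were called, 13372 of them higher. Deviations of same-numbered libraries correlated at 0.03 over features, which cannot tell whether same-numbered libraries share a line or an induction run. Paired differences of the global level were 3.54 and 4.05 points. The added alternative without X-linked features was chosen after seeing the data. The 50 interaction calls became 10 with an offset of 0.1, 82 with all 12 libraries, 8 with a replicate block within origin, and 0 to 165 without 1 library; the cause was not tested. Of the means, only that of the paternally methylated imprinted promoters changed sign, from 2.71 points to -0.495 for the difference of the library medians, whereas the median of its per-promoter differences was 0.545. Of 105 named features, the 86 called kept their direction under each alternative that tested them, which was 67 of them where a level in all 12 libraries was needed, 74 without levels of 0 or 100% and 86 otherwise, and between 56 and 68 stayed called without 1 library. Because the called features were selected in these same libraries, a kept direction is no independent check of them. Depth limits every value but could not be assessed, because no read counts came with the levels.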
